A study of Bos taurus with 3 samples.

Results

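The TGF-beta, activin and bone morphogenetic protein (BMP) pathway was followed as a list of 53 genes that encode its ligands, receptors, SMAD proteins, antagonists and targets. A list gene was measured where a probe set of the array carried its symbol and no other, and 32 of the 53 were measured, among 9155 genes with such a probe set. A gene was read at its probe set with the highest mean over the arrays, and its further probe sets are given beside it. The study asked how gonadal ridge epithelial-like (GREL) cells of the fetal ovary differ from ovarian fibroblasts. RNA came from 3 cultures, each on 1 Affymetrix bovine 3′ expression array. GREL isolates 1 and 2 (n = 2) were cultures of polygonal cells grown from dispersed fetal ovaries, with a labelled age of 130 days of gestation for both, and the study's text describes them as clonally enriched and as coming from separate fetuses of slightly different age. The fibroblasts (n = 1) were fibroblastic cells grown out of the medulla of an ovary from an adult animal, with a labelled age of over 1 year. None of the groups carried a transgene or received a treatment, and all were grown in the same serum-containing medium. Fetal against adult age and GREL against fibroblast identity cannot be told apart, since the adult fibroblasts are the only culture they were compared with.

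Ligands of this family are secreted dimers that bring type II and type I receptor kinases together, and the type I receptor then phosphorylates a SMAD protein. TGF-beta and activin signal mainly through SMAD2 and SMAD3, BMPs mainly through SMAD1, SMAD5 and SMAD9, and SMAD4 joins either branch in the nucleus. In the ovary the family includes oocyte factors (GDF9, BMP15), granulosa cell hormones (AMH, the inhibins and activins) and TGF-betas of the stroma, and the ID genes are classical targets of BMP signalling.

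The values were log2 intensities, rounded to steps of 0.1, so a difference between arrays can be off by up to 0.1. No detection calls came with them. The level that a probe set reads without its transcript being likely was therefore taken from 56 measured genes of other organs. Their 95th percentile, here the upper background level, was 8.18 on the fibroblast array and 7.75 and 7.62 on those of isolates 1 and 2. It was set by a few bright probe sets, among them those of POMC, PRL, APOA1 and ALB. The 90th percentile, here the lower background level, was 5.35, 5.80 and 5.65 in the same order, and the median was 2.0, 1.9 and 2.0. Of the 32 pathway genes, 5 lay above the upper level on at least 1 array, against 12.6% of all genes, and 14 lay above the lower level, against 42.1%. The other 18 lay below both levels on every array, where a low reading is no evidence that the gene was silent.

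Across all genes the isolates lay a median of 0.2 apart on the log2 scale, and 95% of genes lay within 0.8. Marker genes were read beside the labels. Of 9 epithelial markers, 4 (KRT7, KRT19, PKP2 and LSR) exceeded the fibroblasts by over 3-fold in both isolates, and none lay that far below. The study lists these 4 among genes it selected as over 3-fold higher on the same arrays. They are therefore no independent check of the labels. KRT8, KRT18, CDH1, EPCAM and CLDN4 did not exceed 3-fold in both isolates. KRT18 and KRT19, keratins of simple epithelia, lay above the upper level in both isolates. KRT18 did so in the fibroblasts too, at 10.4 against 11.4 and 11.8 in isolates 1 and 2. The epithelial adhesion genes CDH1 and EPCAM lay below the lower level on every array, as did KRT8, CLDN4 and KRT7, the last being 1 of the 4. LSR, also of the 4, lay above the lower level in isolate 2 only. The stromal genes COL1A2, COL3A1 and DCN lay above the upper level on all 3 arrays, so the isolates also gave a strong signal for stromal matrix. Of 10 stromal markers, 3 lay over 3-fold below the fibroblasts in both isolates and none that far above, and their summed linear intensity was 12210 in the fibroblasts, 7064 in isolate 1 and 4058 in isolate 2. Of 13 cell cycle genes, 9 exceeded 3-fold upward in both isolates and none downward, and their sum was 398.4, 1445 and 2549. Of 8 granulosa cell markers, 1 (GATM) exceeded 3-fold upward and none downward, and SERPINE2 and GJA1, which other cell types also express, lay above the upper level on all 3 arrays. FOXL2, FSHR and CYP19A1 were among the 5 below the lower level on every array, as were all 9 blood cell markers and all 8 endothelial markers, of which only EMCN was over 3-fold from the fibroblasts in both isolates. For FOXL2, the study reports strong protein staining in GREL cells of tissue sections. Its RNA read 1.8 (fibroblasts), 1.9 (isolate 1) and 2.0 (isolate 2) here, where a low reading is no evidence that the gene was silent.

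Within the pathway, BMP2, FSTL3, ID1 and ID2 exceeded the fibroblasts by over 3-fold in both GREL isolates, and ENG was over 3-fold lower. BMP2 lay below both background levels on all 3 arrays, FSTL3 and ENG lay between them where they were highest, and ID1 and ID2 lay above both in the isolates. These are 4 of 32 genes (12.5%) higher, against 2.38% of all genes, and 1 of 32 (3.12%) lower, also against 2.38% of all genes. The list was chosen with earlier results of these data known, so its shares beside those of all genes only describe it. At 2-fold the same 4 genes were counted higher (5.8% of all genes) and ENG and TGFBR2 lower (4.78%), and at 5-fold BMP2 alone higher (0.601%) and ENG alone lower (1%). By any amount, 17 of the 32 were higher in both isolates (53.1%, against 41.6% of all genes) and 7 were lower in both (21.9%, against 33.5%). The median log2 difference was 0.20 over the 32 genes and 0.05 over all genes. In limma, fitted over all 24016 probe sets with the spread taken from the GREL isolates alone, 0 probe sets passed an adjusted p of 0.05 in either direction (0% called), the pathway genes included. At an unadjusted p under 0.05 limma gave 7 pathway genes higher and 4 lower, against 12.8% of all genes higher and 11.1% lower. A one way analysis of variance, the test named in the study's methods, was rerun here on the rounded values and also gave 0 calls (0%). The study's text gives no count of calls for its own run. It could be run only on the 20503 probe sets whose isolates differ, which left out 5 pathway genes with tied isolates, BMP2, SMAD4, TGFB1, TGFBR1 and BMPR1A. Calls were made under 2 other settings. A robust prior, on all probe sets, called BMP2 and SMAD4 higher and no pathway gene lower, against 3.22% and 2.61% of all genes. A fit limited to probe sets whose isolates differ called FSTL3, SMAD3, ID1, ID2 and TGFBI higher and TGFBR2 and ENG lower, against 10.3% and 7.54% of the genes in that fit. The differences below are therefore given by their size in each isolate, and the fibroblast culture has no replicate to show how far it is typical.

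**Figure D1:**
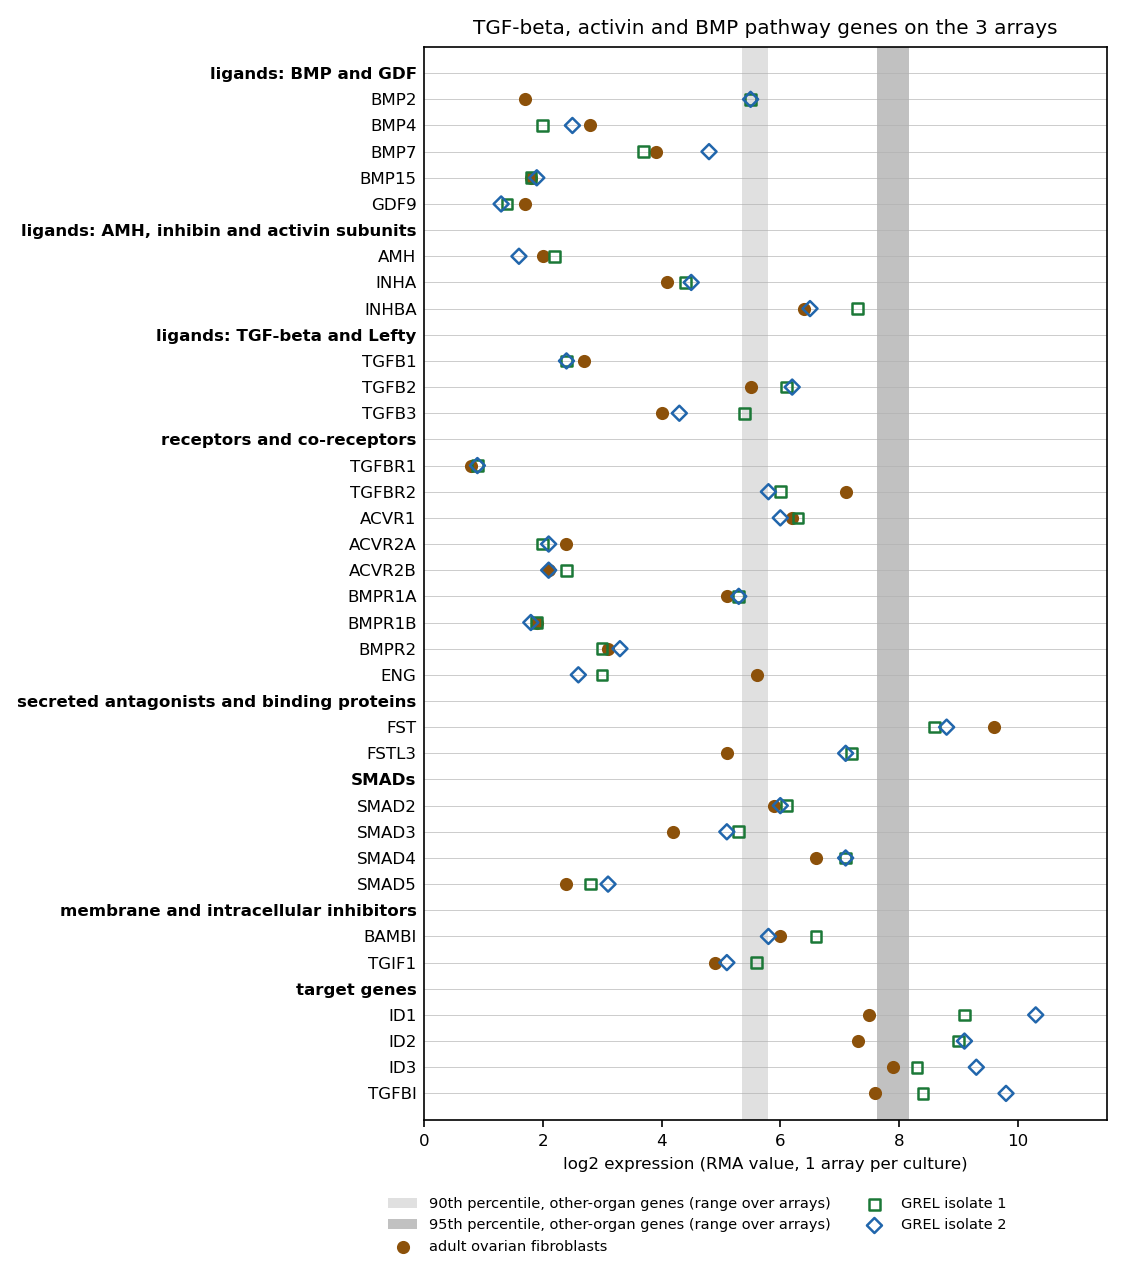
Log2 expression (horizontal axis, RMA values) of the 32 measured pathway genes, grouped by role, with filled circles for adult ovarian fibroblasts, squares for isolate 1 and diamonds for isolate 2 of the GREL cells, 1 array per culture and no error bars. Grey bands span the lower (light) and upper (dark) background levels over the 3 arrays. The 4 target genes lie above the upper level in both isolates, and BMP2 lies at 5.5 in both isolates and at 1.7 in the fibroblasts.

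Of the BMP and GDF ligands, all 5 lay below the lower background level on every array, so their differences are readings of dim probe sets. BMP2, a ligand of the BMP branch, read 1.7 (log2) on the fibroblast array and 5.5 on both GREL arrays. That is 13.9-fold in each, a difference of 3.80 (SE, the standard error, 0.03, limma adjusted p = 0.182). Both isolates read above the fibroblasts. The standard error is too small, because the rounded values of the isolates were identical. In the isolates BMP2 lay just below the lower background level, so neither its fold nor its expression in any culture is established by these values. In a culture, fewer cells that express a gene and less RNA per cell cannot be told apart.

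The other ligands of this branch did not share that pattern. BMP4, a ligand close in sequence to BMP2, read 2.8 on the fibroblast array against 2.0 in isolate 1 and 2.5 in isolate 2. BMP7 read 3.9 (fibroblasts), 3.7 (isolate 1) and 4.8 (isolate 2). Its isolates lay on either side of the fibroblasts and 1.1 apart, a gap that only few genes had (1.25% of all genes were over 2-fold higher in isolate 1 and 1.06% in isolate 2). A further probe set of BMP7 had the same order, at 3.3, 3.0 and 4.7. The oocyte factor BMP15 was at 1.8, 1.8 and 1.9, and its further probe set at 1.4, 1.2 and 1.2. GDF9, the other oocyte factor, was at 1.7, 1.4 and 1.3. Both were near the median of the genes of other organs on every array.

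Of the subunits of inhibin and activin, INHBA, which forms activin A and inhibin A, read 6.4 (fibroblasts), 7.3 (isolate 1) and 6.5 (isolate 2). Its difference of 0.50 was smaller than the 0.8 between the isolates. INHA, the subunit that makes a dimer an inhibin, was at 4.1, 4.4 and 4.5. AMH, the hormone of granulosa cells, was at 2.0, 2.2 and 1.6, near the median of the genes of other organs. Only INHBA of these lay above the lower background level, and it did so in all 3 cultures.

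The TGF-beta ligands differed from each other. TGFB2 read 5.5 in fibroblasts against 6.1 and 6.2 in isolates 1 and 2, above the lower background level in each culture, a difference of 0.65 (SE 0.07, limma adjusted p = 0.20). TGFB3 read 4.0 (fibroblasts), 5.4 (isolate 1) and 4.3 (isolate 2). Isolate 1 alone was over 2-fold higher, and the isolates lay 1.1 apart. TGFB1 read 2.7 in fibroblasts against 2.4 in each isolate. None of the 3 was over 3-fold from the fibroblasts in either isolate.

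Among the receptors and co-receptors, ENG and TGFBR2 were lower in the GREL cells and the remaining 7 lay within 0.4 of the fibroblasts in either isolate. ENG encodes endoglin, a co-receptor for TGF-beta and BMP ligands that is abundant in endothelium. It read 5.6 on the fibroblast array against 3.0 in isolate 1 and 2.6 in isolate 2. That is 6.06-fold and 8.0-fold lower, a difference of -2.80 (SE 0.28, limma adjusted p = 0.196). ENG lay above the lower background level in the fibroblasts only, and below the upper one everywhere, so its fold is uncertain too. Beside it, endothelial markers read low on every array. PECAM1, CDH5, VWF, KDR and TIE1 were within 0.3 of the fibroblasts in both isolates. EMCN was at 4.7, 3.1 and 2.9, TEK at 3.0, 2.4 and 2.6, and CLDN5, higher in the isolates, at 1.6, 2.2 and 2.1. The summed linear intensity of the 8 endothelial markers was 55.1 in the fibroblasts, 34.5 in isolate 1 and 36.7 in isolate 2. EMCN was the brightest of the 8 on every array, and the fall in the sum was mostly that of EMCN. The stromal marker sums given above were lower in the isolates too. The part of either set of markers in the ENG difference was not tested.

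TGFBR2, the type II receptor that binds TGF-beta, read 7.1 in fibroblasts against 6.0 and 5.8 in isolates 1 and 2. That is 2.14-fold and 2.46-fold lower, a difference of -1.20 (SE 0.14, limma adjusted p = 0.20), with all 3 cultures above the lower background level. The stromal markers were lower in the isolates as well, at the sums given above, and their part in this difference was not tested. A further probe set of TGFBR2 read 1.4, 1.5 and 1.5, below background in all cultures. ACVR1, a type I receptor used by BMPs, was at 6.2, 6.3 and 6.0, and its further probe set at 3.4, 4.1 and 3.2. BMPR1A, a type I receptor for BMP2 and BMP4, read 5.1 in fibroblasts against 5.3 in each isolate. BMPR1A lay below the lower background level in every culture.

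The remaining 5 receptors also lay below the lower background level in every culture. The type II receptor BMPR2 was at 3.1, 3.0 and 3.3, with further probe sets at 1.5, 1.2 and 1.5 and at 1.4, 1.2 and 1.2. The activin type II receptors ACVR2A and ACVR2B were at 2.4, 2.0 and 2.1 and at 2.1, 2.4 and 2.1. BMPR1B, a type I receptor, was at 1.9, 1.9 and 1.8, and its further probe set at 1.2, 0.9 and 1.1. TGFBR1, the type I receptor for TGF-beta, was at 0.8, 0.9 and 0.9. At these readings no difference between the cultures was detectable, which does not show that these receptors are absent.

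**Figure D2:**
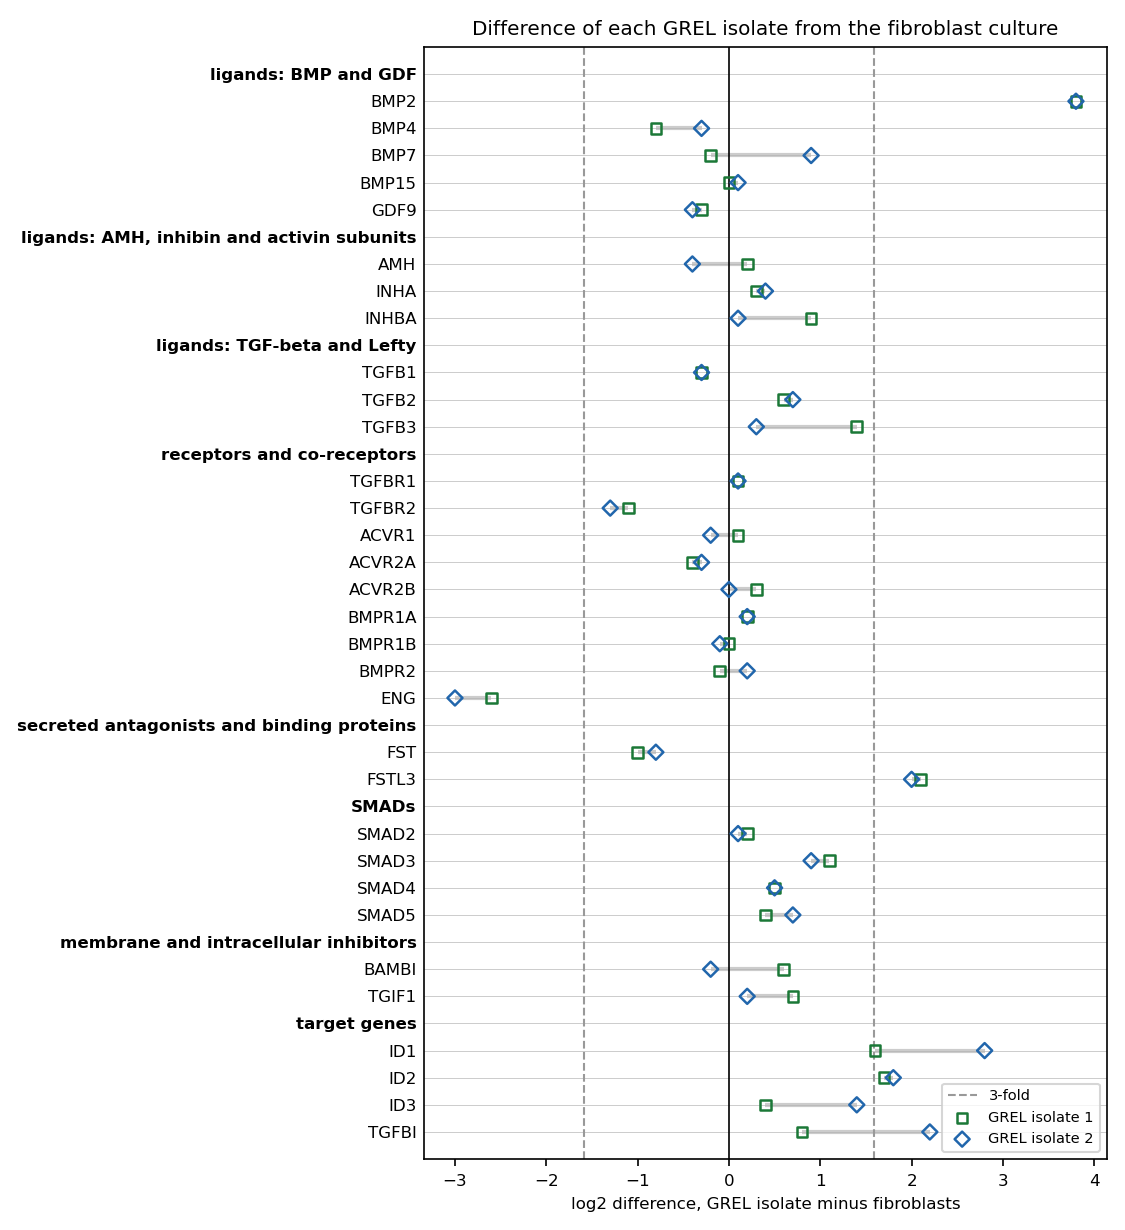
Log2 difference (horizontal axis) of GREL isolate 1 (squares) and isolate 2 (diamonds) from the fibroblast culture for the 32 measured pathway genes by role, with a grey bar joining the isolates and dashed lines at 3-fold. BMP2, FSTL3, ID1 and ID2 lie beyond the right line in both isolates and ENG beyond the left line, while ID1, ID3 and TGFBI show wide gaps between the isolates.

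The secreted binding proteins FST and FSTL3, which both trap activin, lay on opposite sides. FSTL3, follistatin-like 3, read 5.1 on the fibroblast array against 7.2 in isolate 1 and 7.1 in isolate 2. That is 4.29-fold and 4.0-fold higher, a difference of 2.05 (SE 0.07, limma adjusted p = 0.182). FSTL3 lay above the lower background level in both isolates but not in the fibroblasts, and above the upper level nowhere. FST, follistatin, read 9.6 in fibroblasts against 8.6 and 8.8 in isolates 1 and 2, above the upper level in all 3 cultures. It was 2.00-fold and 1.74-fold lower in GREL cells, a difference of -0.90 (SE 0.14, limma adjusted p = 0.227). In both genes the isolates lay close together, 0.1 apart for FSTL3 and 0.2 for FST, and the fibroblasts lay outside them.

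The 4 measured SMADs were all higher in both isolates, none of them over 3-fold. SMAD3, which carries TGF-beta and activin signals, read 4.2 in fibroblasts against 5.3 and 5.1 in isolates 1 and 2, a difference of 1.00 (SE 0.14, limma adjusted p = 0.208). All 3 cultures lay below the lower background level for it, and its further probe set was at 2.5, 2.8 and 2.5. SMAD4, the shared partner, read 6.6 in fibroblasts against 7.1 in each isolate, above the lower level in each culture. SMAD2 was at 5.9, 6.1 and 6.0, a difference close to the rounding step. SMAD5 of the BMP branch was at 2.4, 2.8 and 3.1, and its further probe set at 1.5, 1.3 and 1.6.

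Of the inhibitors inside the cell or at its membrane, BAMBI, a decoy receptor, read 6.0 (fibroblasts), 6.6 (isolate 1) and 5.8 (isolate 2). The isolates lay on either side of the fibroblasts. TGIF1, a nuclear repressor of SMAD2 and SMAD3, was at 4.9, 5.6 and 5.1, with a further probe set at 4.2, 4.3 and 3.9. For neither gene did the difference exceed the gap of isolate 1 to isolate 2.

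The targets were the group with the largest median difference, 1.62, and all 4 measured ones were higher in both isolates. ID2, an inhibitor of helix-loop-helix transcription factors, read 7.3 on the fibroblast array against 9.0 in isolate 1 and 9.1 in isolate 2. That is 3.25-fold and 3.48-fold higher, a difference of 1.75 (SE 0.07, limma adjusted p = 0.182). ID1, of the same family, read 7.5 (fibroblasts), 9.1 (isolate 1) and 10.3 (isolate 2). It was 3.03-fold and 6.96-fold higher, a difference of 2.20 (SE 0.84, limma adjusted p = 0.353). For both genes the isolates lay above the fibroblasts and above the upper background level, and the fibroblasts lay between the background levels. ID1 passed 3-fold in isolate 1 only by the rounding step (1.60 against 1.585), and did not pass with the arrays centred on their medians or quantile normalized again. The dimmer further probe sets had smaller differences, at 1.3, 1.8 and 1.9 for ID1 and at 3.1, 4.6 and 3.9 for ID2, and averaging probe sets took both genes below 3-fold.

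ID3 read 7.9 (fibroblasts), 8.3 (isolate 1) and 9.3 (isolate 2), a difference of 0.90 (SE 0.70, limma adjusted p = 0.542). TGFBI, a matrix protein named for its induction by TGF-beta, was at 7.6, 8.4 and 9.8. Its difference was 1.5 (SE 0.98, limma adjusted p = 0.495), and it was 1.74-fold higher in isolate 1 and 4.59-fold in isolate 2. Without isolate 1 it would be counted as over 3-fold higher. In ID1, ID3 and TGFBI isolate 2 was the higher, by 1.2, 1.0 and 1.4, whereas ID2 was nearly equal in the isolates. The cell cycle genes were also higher in isolate 2 than in isolate 1, at the sums given above, and the stromal markers lower, and their part in these gaps was not tested.

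Over the 32 genes, 4 had isolates over 2-fold apart: BMP7, ID1 and TGFBI were higher in isolate 2, and TGFB3 in isolate 1. The share of all genes over 2-fold apart was 1.06% for isolate 2 higher and 1.25% for isolate 1 higher. With 1 culture on each side, this difference between isolates has no test. In 20 of the 32 genes GREL cells and fibroblasts differed by more than the isolates differed from each other (62.5%), against 64.5% of all genes.

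**Figure D3:**
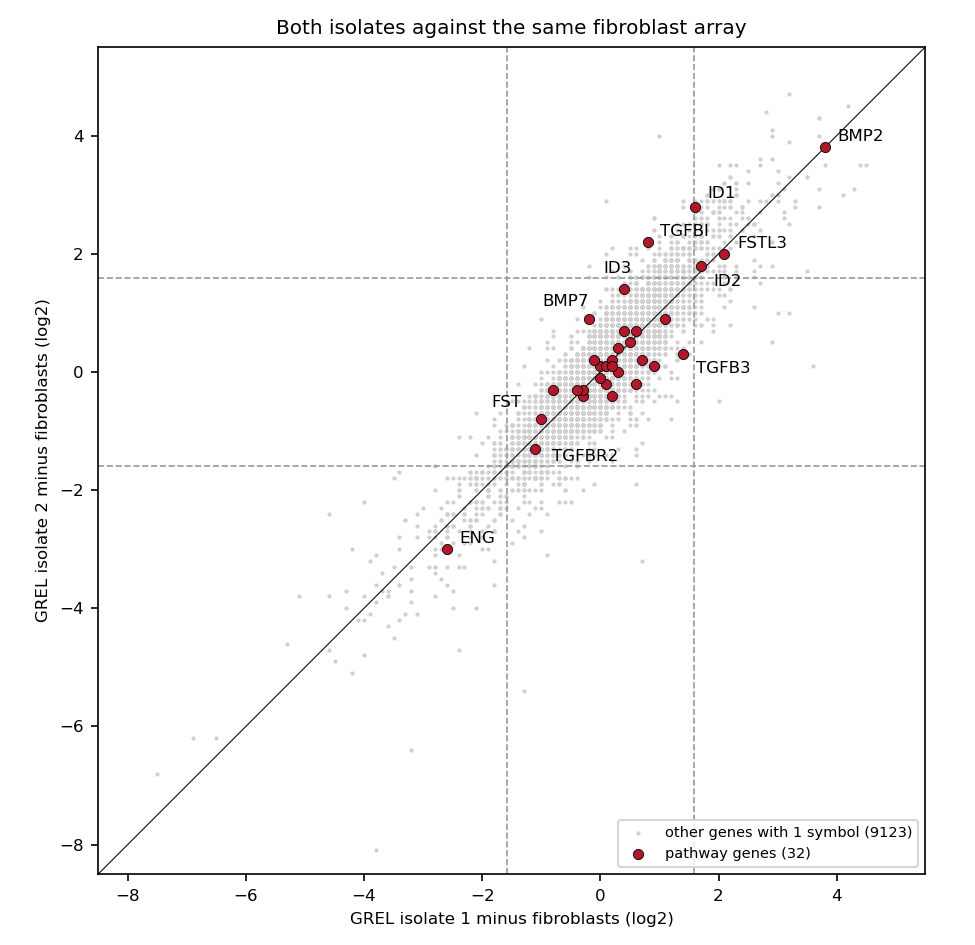
Log2 difference from the fibroblast array in GREL isolate 1 (horizontal axis) and isolate 2 (vertical axis) for the 32 pathway genes (red) and the other genes with 1 symbol (grey), with dashed lines at 3-fold and the line of equal differences. Both axes share the fibroblast array, and the points are not independent of it. BMP2 and ENG lie far out on the diagonal, and ID1, ID3, TGFBI and BMP7 lie above it.

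Further genes of the pathway, picked by role, gave 63 measured of 118 listed. Of the 63, 1 was over 3-fold higher in both isolates and 1 was over 3-fold lower (1.59% each, against 2.38% of all genes each). The median difference was -0.05. LTBP2, a protein related to those that hold TGF-beta latent in the matrix, read 3.9 (fibroblasts), 7.4 (isolate 1) and 5.6 (isolate 2). ACVRL1, a type I receptor that works with endoglin in endothelium, read 4.4 in fibroblasts against 2.7 in each isolate, below the lower background level in each. ENG and ACVRL1 were thus both lower in the GREL cells. The endothelial and the stromal marker sums given above were lower in the isolates as well, and their part in these differences was not tested.

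Of 8 genes that store or release TGF-beta, 6 were lower in both isolates (75%, against 33.5% of all genes). LTBP2 was the one higher (12.5%, against 41.6%), and the median was -0.75. DCN, among the 6, is also a stromal marker, and its part in the median was not tested. ITGAV, an integrin subunit that can release TGF-beta from its latent form, read 8.4 (fibroblasts), 7.6 (isolate 1) and 6.9 (isolate 2). THBS1, a matricellular protein that can activate it, was at 11.2, 10.5 and 9.5, and the microfibril protein FBN1 at 9.5, 8.8 and 7.6. In these 3 genes isolate 1 lay between the fibroblasts and isolate 2, the same order as the stromal marker sums.

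Of 22 further targets, 6 were higher in both isolates (27.3%, against 41.6% of all genes) and 12 lower (54.5%, against 33.5%), with a median of -0.25, and none was over 3-fold in both. CDKN1A, a cell cycle inhibitor, read 8.6 (fibroblasts), 7.2 (isolate 1) and 6.3 (isolate 2). COL1A1, a collagen of the stroma, was at 9.7, 8.7 and 7.4, and the homeobox gene MSX1 at 3.5, 2.2 and 2.5. CCN2, a matricellular protein induced by TGF-beta, read 10.8 in fibroblasts against 11.4 in each isolate, and TPM1, a tropomyosin, at 10.2 and at 10.9 in both. Of the 22, 3 (COL1A1, COL1A2 and COL3A1) are also stromal markers, whose sums were lower in the isolates, and their part in the median was not tested.

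Of 24 further regulators inside the cell, 13 were higher in both isolates (54.2%, against 41.6% of all genes) and 6 lower (25%, against 33.5%). Their median was 0.28, and none was over 3-fold in both. PPP2CA, a phosphatase subunit, read 7.4 in fibroblasts against 8.5 in each isolate, and STRAP, which binds TGF-beta receptors and SMAD7, at 6.9, 7.9 and 8.1. DAB2, an adaptor of TGF-beta receptors, was at 8.1, 7.1 and 7.3, and CITED2, a transcriptional co-regulator, at 8.5 and at 7.7 in both isolates. The 5 further ligands and 4 further antagonists and co-receptors read low. Among them MSTN was at 2.4, 2.9 and 2.7, GDF7 at 5.6, 5.0 and 5.1, SOSTDC1 at 1.4, 1.5 and 1.6 and BMPER at 2.1 and at 1.9 in both isolates. No gene of these further lists passed limma at an adjusted p of 0.05. A robust prior called 10 of the 63, 6 higher and 4 lower, against 3.22% and 2.61% of all genes. The 10 were 7 regulators inside the cell, 2 targets and 1 co-receptor or antagonist. In each of the 10 the rounded values of the isolates were identical, as in BMP2 and SMAD4. Their standard errors are therefore too small, and the calls are no evidence of an excess in the pathway.

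**Figure D4:**
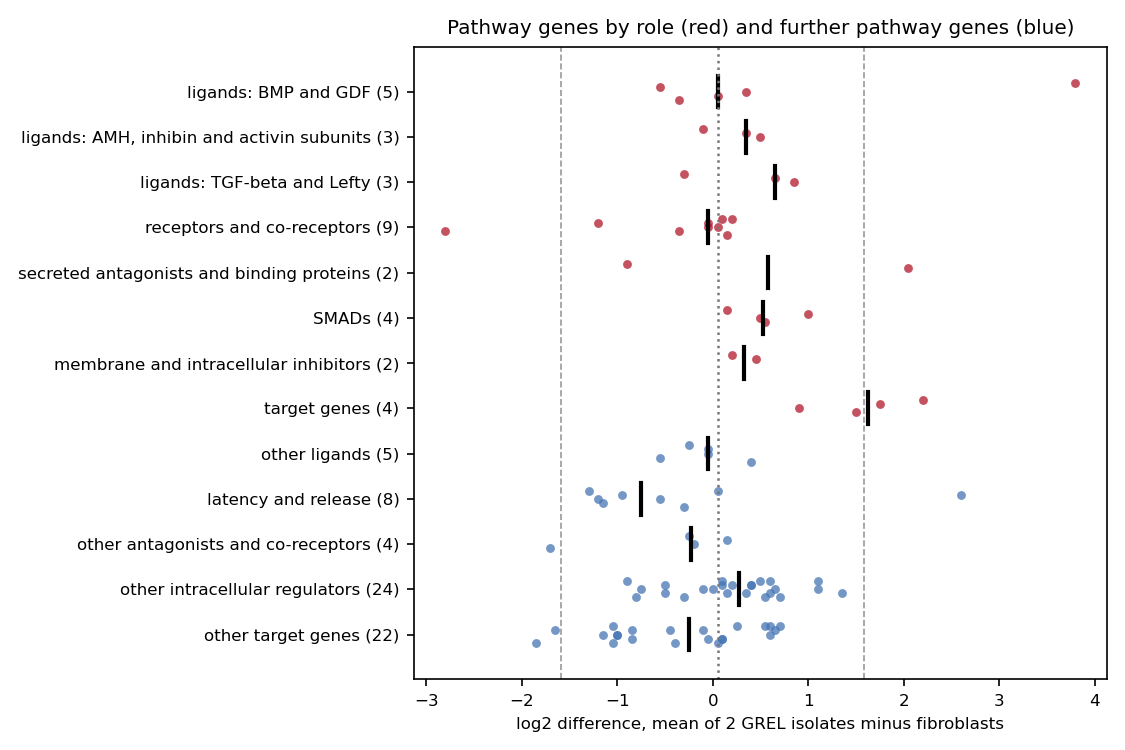
Mean of the 2 GREL isolates minus fibroblasts on the log2 scale (horizontal axis) for every measured pathway gene by role (red) and for further pathway genes (blue), with the number of genes in brackets, the median of each group as a black bar, the median of all genes (0.05) as a dotted line and 3-fold as dashed lines. Points are spread vertically for legibility. The 4 target genes have a median of 1.62, and the 22 further targets a median of -0.25.

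The 21 listed genes without a probe set of their own symbol were not analysed here. They were the ligands BMP6, GDF10, INHBB and LEFTY2, the receptors AMHR2, TGFBR3 and ACVR1B, the binding proteins FSTL1, GREM1, NOG, CHRDL1 and NBL1, the SMADs SMAD1, SMAD6, SMAD7 and SMAD9, the inhibitors SMURF1, SMURF2, SKI and SKIL, and the target ID4. The BMP antagonists GREM1, NOG, CHRDL1 and NBL1 and the inhibitory SMADs SMAD6 and SMAD7 are thus outside what these values can show.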

How the data were processed

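RNA of 2 GREL isolates and 1 adult ovarian fibroblast culture was hybridized to Affymetrix GeneChip Bovine Genome Arrays. The authors deposited log2 values after RMA background subtraction and quantile normalization (Partek 6.5 in the submitters' processing notes), rounded to steps of 0.1. The table held 24128 probe sets, and the 112 controls of the array were dropped. Platform annotation gave 1 symbol to 13292, several to 86 and none to 10638, and 0 symbols changed through the current bovine gene table. All columns were used. Coordinates are not given, because the genome build is not given in the sources used here.

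GREL minus fibroblast was fitted over 24016 probe sets with limma 3.58.1 (lmFit and eBayes, R 4.3.3, 1 residual degree of freedom, Benjamini-Hochberg adjustment). On simulated data the size of the fitted differences was checked with rounded values, and a minimum of calls was required only of unrounded values. The p-values measure only the spread between the 2 isolates, and the fibroblasts were assumed to vary like them. In 3513 probe sets the isolates were identical after rounding, and the variance prior had few degrees of freedom (0.547). Genes over 3-fold, the study's threshold, had to exceed it in both isolates. Counts and figures were made in Python 3.11.15 with pandas 2.3.3. The members and lists were chosen with earlier results of these data known. Each measured member is described, and of the further lists up to 2 genes in each direction by the smaller isolate difference, ties included. Marker lists covered epithelium, granulosa cells, endothelium, stroma, smooth muscle, germ cells, blood cells and the cell cycle. Of 6 smooth muscle markers none was over 3-fold apart in both isolates, and of 7 germ cell markers 1 (KIT) was over 3-fold lower. Other settings were fold thresholds of 2 and 5, the mean over probe sets, repeated quantile normalization, median centring, a filter on dim genes, an intensity trend, a robust prior, probe sets whose isolates differ, one way analysis of variance and leaving out either isolate. The number of arrays limits the precision.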

Additional observations from a re-analysis of the deposited data

How the results depend on the processing

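With 1 fibroblast array, no setting measures how fibroblast cultures vary, and most pathway genes read below the background levels. BMP2, FSTL3 and ENG kept their side of 3-fold under renormalization. Averaging of probe sets could not move them, since each has 1 probe set. Omission of an isolate could not either, since the main count already required both isolates. The count of pathway genes over 3-fold higher was 4. It was 1 (BMP2) at 5-fold, 2 (BMP2 and FSTL3) with the mean over probe sets, and 2 (ID1 and ID2) among genes above the upper background level. Leaving out an isolate gave 4 to 5. The count lower was 1, and became 2 (ENG and TGFBR2) at 2-fold and 0 among genes above the upper background level, and leaving out an isolate gave 1 to 1. Over all genes the counts of 218 higher and 218 lower became 531 and 438 at 2-fold, 55 and 92 at 5-fold, and 37 and 52 above the upper background level. Leaving out an isolate gave 263 to 431 higher and 251 to 331 lower, the larger counts without isolate 1. The median difference of the pathway genes was 0.15 to 0.25 without either isolate and 1.5 over the 5 genes above the upper background level. Of these 5, ID1, ID2, ID3 and TGFBI passed that filter in the isolates only, where they were higher. The median of 1.5 and the count of 2 (ID1 and ID2) thus follow in part from the filter. With the lower in place of the upper level, 14 genes in place of 5 lay above background.

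Most limma settings made no call, and 2 did, for a reason that was not tested. A robust prior, which kept the tied probe sets, called 571 probe sets higher and 618 lower, among them 2 pathway genes higher, BMP2 (adjusted p = 0.0452) and SMAD4, both with tied isolates, and none lower. Over BMP2's settings with a limma fit the adjusted p ranged from 0.0452 to 0.250. Fitted on the 20503 probe sets whose isolates differ, limma called 1476 higher and 1252 lower, with 5 pathway genes higher (FSTL3, SMAD3, ID1, ID2 and TGFBI) and 2 lower (TGFBR2 and ENG). In that fit the variance prior had infinite degrees of freedom, against 0.547 in the main fit. All probe sets thus shared the same variance, so a call mostly reflects the size of the difference. The one way analysis of variance rerun here, on the same 20503 probe sets, called 0 (186 probe sets higher and 208 lower unadjusted). An intensity trend, a filter on dim probe sets and either renormalization called 0 too. The difference of BMP7, 0.35, was -0.20 without isolate 2 and 0.90 without isolate 1. No paired analysis was possible because the fibroblasts are 1 culture without a replicate number in the labels.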
